A study of Mus musculus with 12 samples.

Results

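The mRNAs of 10 giant proteins that stay in the cytosol or nucleus were followed across 12 RNA-seq libraries of mouse embryonic stem cells. The genes are Dync1h1, Huwe1, Macf1, Ahnak, Herc1, Herc2, Birc6, Ubr4, Mdn1 and Prkdc. They were taken by name, as genes with very long coding sequences whose products do not enter the secretory pathway, and they make up 10 of the 55416 gene identifiers in the files and 10 of the 16221 genes that passed the filter on low counts. All 10 were found and all 10 passed that filter. They were chosen by their length and with their ratios of ribosome-bound to whole-cell RNA and of ER to cytosol ribosome-bound RNA already known, so these ratios are a description with no p-value. Where the fit over all genes called them, that count stands beside the share of all tested genes and supports nothing about the 10.

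All cells belonged to the E14Tg2a.4 embryonic stem cell line carrying Rpl31, a protein of the large ribosomal subunit, fused to FLAG, a cleavage site for TEV protease and an AviTag (Rpl31-FTA), so whole-cell and ribosome-bound libraries share this tag. Plasmids for both fragments of ALIBi, N-terminal and C-terminal, a system that biotinylates tagged ribosomes in its vicinity, were transfected in forms targeted to the cytosol or to the endoplasmic reticulum (ER). Biotinylated ribosomes were purified from lysates with cycloheximide, a drug that holds ribosomes on mRNA, and their poly(A) RNA was sequenced beside whole-cell RNA from an aliquot of the lysate. Each of the 4 groups (cytosol ribosome-bound, ER ribosome-bound, cytosol whole-cell and ER whole-cell) held 3 biological replicates. Separate cultures are not named in the labels, so SDs and SEs measure the spread between these samples, which may be technical, and in bulk RNA fewer cells with an mRNA and less of it per cell cannot be told apart. No library used here is labelled with an siRNA, a treatment named in the series' protocols.

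Proteins for export or for membranes usually begin with a hydrophobic signal that brings the translating ribosome to the ER, while cytosolic and nuclear proteins are made on ribosomes without such a signal. A very long coding sequence takes longer to translate and can carry many ribosomes at a time. The 10 proteins do central work in a dividing cell: Dync1h1 moves cargo along microtubules, and Macf1 and Ahnak organise the cell cortex and cytoskeleton. Huwe1, Herc1, Herc2, Ubr4 and Birc6 attach ubiquitin to other proteins. Mdn1 remodels maturing large ribosomal subunits, and Prkdc is a kinase that takes part in the joining of broken DNA ends.

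The encoded proteins ranged from 4128 residues (Prkdc) to 7355 (Macf1) in the GENCODE M21 annotation. Of 14122 tested coding genes with a complete coding sequence, 99.6% encoded a protein shorter than Prkdc, and the median was 466 residues. None of the 10 proteins had an N-terminal hydrophobic segment, defined as a window of 12 residues within the first 40 with a mean Kyte-Doolittle hydropathy of at least 2.0, whereas 16.8% of tested coding genes had such a segment. The highest such window ranged from -0.81 in Macf1 to 1.28 in Mdn1. Further inside the protein, 4 of the 10 had a window of 19 residues at 1.8 or more: Mdn1 reached 2.12, Birc6 1.95, and Herc2 and Ubr4 1.89 each. Dync1h1 lies on chromosome 12, Huwe1 on chromosome X, Macf1, Ubr4 and Mdn1 on chromosome 4, Ahnak on chromosome 19, Herc1 on chromosome 9, Herc2 on chromosome 7, Birc6 on chromosome 17 and Prkdc on chromosome 16. These lengths and chromosomes come from an annotation on GRCm38, while the counts were made on GRCm39, so no positions are given.

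The first 75 coding bases show what the ribosome meets first in 5 of these mRNAs and, for contrast, in the secretory receptor mRNAs Lrp1 and Lrp2, which encode proteins of like length. Codons for the hydrophobic residues A, V, L, I, F, M and C are in capitals, and the sequences are those of GENCODE M21 transcripts, written 5′ to 3′.
Macf1: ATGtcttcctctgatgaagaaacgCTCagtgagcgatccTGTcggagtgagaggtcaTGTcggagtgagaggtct
Dync1h1: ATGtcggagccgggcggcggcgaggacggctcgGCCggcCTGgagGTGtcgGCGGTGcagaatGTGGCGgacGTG
Huwe1: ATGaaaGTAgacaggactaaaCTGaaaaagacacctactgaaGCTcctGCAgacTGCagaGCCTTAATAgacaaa
Mdn1: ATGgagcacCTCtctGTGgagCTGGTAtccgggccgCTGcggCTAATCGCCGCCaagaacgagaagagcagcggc
Prkdc: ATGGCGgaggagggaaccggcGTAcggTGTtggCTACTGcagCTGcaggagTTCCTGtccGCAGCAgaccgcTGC
Lrp1: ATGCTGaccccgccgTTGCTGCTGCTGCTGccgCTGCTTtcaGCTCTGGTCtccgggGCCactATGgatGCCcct
Lrp2: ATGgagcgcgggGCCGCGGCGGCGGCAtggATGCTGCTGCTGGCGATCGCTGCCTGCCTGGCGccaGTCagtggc
Macf1 had 4 hydrophobic codons of the 25, Dync1h1 and Huwe1 had 9 each, Mdn1 had 10 and Prkdc 12. Lrp1 had 15 and Lrp2 had 18 of 25, and their best 12-residue windows reached 2.83 and 2.67. They are the clearest of 5 long secretory mRNAs read this way: Igf2r and Hspg2 had 14 such codons each, with windows of 2.77 and 2.01, and Lama5 had 9, as few as Dync1h1 and Huwe1, with its window of 2.8 reached within the first 40 residues.

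Whole-cell RNA gives the level of these mRNAs before purification. Levels are given in CPM, counts scaled to a common library size by the trimmed mean of M values (TMM), and, to compare genes, in CPM per kilobase of transcript. Huwe1 had the highest level per kilobase in cytosol whole-cell RNA, 28.6 ± 1.23 CPM per kilobase (SD, n = 3), followed by Dync1h1 with 25.2 ± 0.98 and Ubr4 with 16.4 ± 0.48. Huwe1 stood above 80.2% of tested coding genes on this scale. Birc6 (6.72), Mdn1 (5.71), Herc1 (5.07), Macf1 (4.88) and Herc2 (4.18) formed a middle group in CPM per kilobase, and Ahnak (2.71) and Prkdc (2.52) came last, above 31.4% and 30.3% of tested coding genes. Herc1 and Macf1 were the neighbours in this order whose libraries overlapped, and in ER whole-cell RNA Mdn1 and Herc1 overlapped as well. Whole-cell order was otherwise the same under both targetings.

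The order changed on ribosomes. Huwe1, Dync1h1 and Ubr4 remained the 3 highest per kilobase in cytosol ribosome-bound RNA, at 7.58 ± 0.41, 4.97 ± 0.40 and 3.62 ± 0.47 CPM per kilobase. Macf1 followed there (1.89 ± 0.18) and overlapped with Herc1 (1.73 ± 0.08), which overlapped with Birc6 (1.72 ± 0.08). Mdn1, at rank 5 of 10 in whole-cell RNA, was at rank 8 with 1.15 ± 0.06 CPM per kilobase and overlapped with Herc2 and Ahnak. Prkdc was the lowest in all 4 groups.

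**Figure D1:**
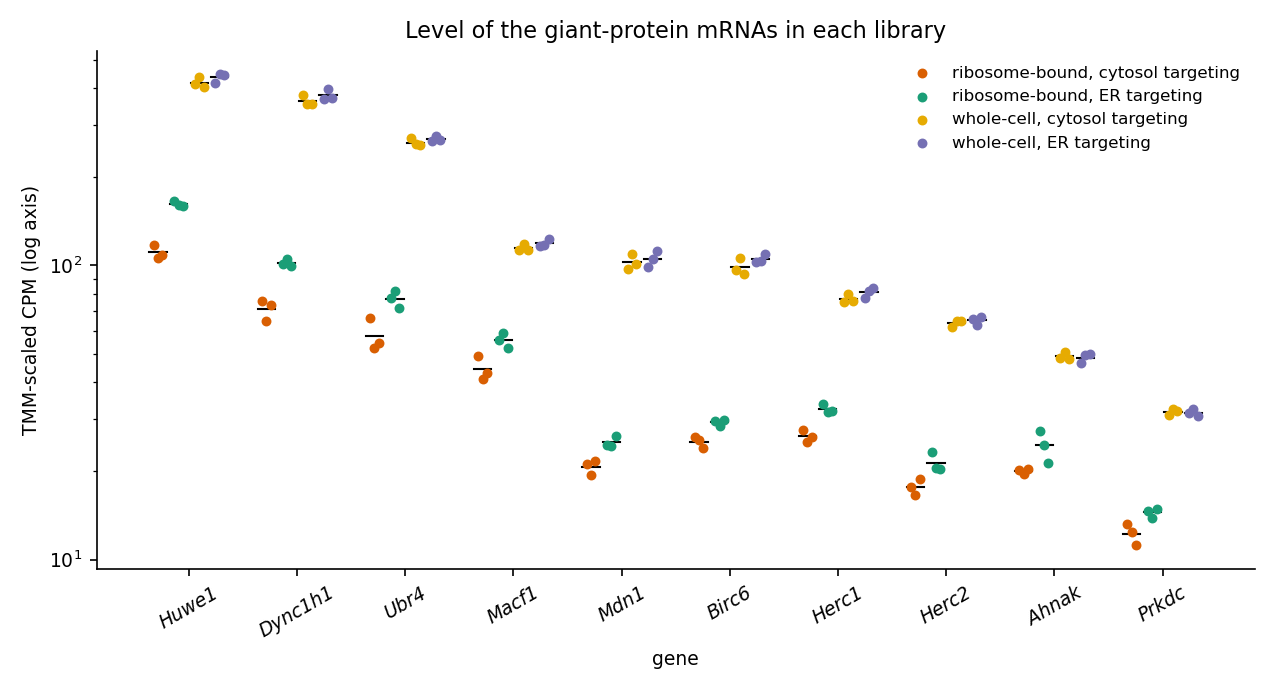
TMM-scaled CPM on a log axis for each of the 10 genes, with 1 point per library, coloured by group, and a bar at each group's mean. For every gene the 6 ribosome-bound points lie below the 6 whole-cell points, and the ER ribosome-bound points lie above the cytosol ribosome-bound points.

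All 10 mRNAs had a lower CPM on cytosol-labelled ribosomes than in the whole cell, a difference relative to the other mRNAs of each library. The shortfall ran from 2.44-fold for Ahnak to 5.07-fold for Dync1h1, with a median log2 ratio of -1.88 beside -0.05 over all tested genes. For 10 of 10 genes the 3 ribosome-bound libraries lay below the 3 whole-cell libraries without overlap, where 35.2% of all tested genes did. Each was also past the threshold of edgeR's quasi-likelihood test in this direction, as 33.0% of tested genes were. All 10 were lower by more than 2-fold, as were 3.74% of tested genes.

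Dync1h1, the motor heavy chain of cytoplasmic dynein, was at 75.8, 64.7 and 73.4 CPM in the cytosol ribosome-bound libraries and at 378.1, 354.2 and 353.2 CPM in cytosol whole-cell RNA. The highest ribosome-bound library thus held far less than the lowest whole-cell library, and the log2 ratio was -2.34 (SE 0.045). With ER targeting Dync1h1 was at 101.3, 105.3 and 99.6 CPM on ribosomes against 367.9, 396.2 and 369.3 CPM in whole-cell RNA, a log2 ratio of -1.89 (SE 0.044). Only 51 of the tested genes had a lower ratio with cytosol targeting and 52 with ER targeting. In the annotation Gm17111 and Gm35558 lie on the strand opposite Dync1h1, and whether the counting used strand is not given in the sources used here.

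Macf1, a spectraplakin that links actin filaments to microtubules, encodes the longest protein of the 10 yet had a comparatively mild shortfall. Cytosol ribosome-bound libraries held 49.2, 41.2 and 43.1 CPM of it and cytosol whole-cell libraries 113.0, 118.1 and 112.7 CPM, for a log2 ratio of -1.37 (SE 0.050). With ER targeting its ribosome-bound level was 55.7 ± 3.4 CPM against 118.9 ± 3.6 CPM in whole-cell RNA, a log2 ratio of -1.09 (SE 0.050). Ahnak, a large scaffold beneath the plasma membrane, had the smallest shortfall under both targetings. Its libraries read 20.2, 19.6 and 20.4 CPM on cytosol-labelled ribosomes and 48.3, 50.8 and 48.0 CPM in the matching whole-cell RNA, a log2 ratio of -1.29 (SE 0.061). On ER-labelled ribosomes Ahnak was at 27.4, 24.6 and 21.3 CPM, a wider spread than in the other groups, against 46.6, 49.4 and 49.8 CPM. That log2 ratio of -0.99 (SE 0.061) was the only value of the 10 short of 2-fold with ER targeting.

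Of the ubiquitin enzymes, Ubr4, which recognises N-degrons, the destabilising N-termini of proteins, was the most depleted with cytosol targeting. It was at 66.0, 52.2 and 54.6 CPM on cytosol-labelled ribosomes and at 269.7, 257.5 and 255.7 CPM in whole-cell RNA, a log2 ratio of -2.18 (SE 0.053). Replicate 1 of the cytosol ribosome-bound group was the highest of its 3 libraries for Ubr4, as it was, among others, for Huwe1, Macf1 and Dync1h1. On ER-labelled ribosomes Ubr4 was at 77.3, 82.0 and 71.5 CPM against 265.0, 275.8 and 265.5 CPM, a log2 ratio of -1.80 (SE 0.052). Emc1 overlaps Ubr4 on the same strand in the annotation, so some reads could be assigned to either gene.

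Huwe1, a HECT-type ligase with many nuclear and cytosolic substrates, was the most abundant of the 10 mRNAs in all 4 groups. Its levels were 117.2, 105.8 and 108.6 CPM on cytosol-labelled ribosomes against 412.2, 437.0 and 402.2 CPM in whole-cell RNA, and the log2 ratio was -1.92 (SE 0.040). ER-labelled ribosomes held 165.1, 160.0 and 159.4 CPM of Huwe1 against 417.8, 445.5 and 441.6 CPM, which gave -1.43 (SE 0.039) on the log2 scale. The microRNA gene Mir3113 lies within Huwe1.

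Birc6, an inhibitor of apoptosis that is also a ubiquitin-conjugating enzyme, had nearly the same shortfall under both targetings. It was at 26.1, 25.4 and 23.9 CPM on cytosol-labelled ribosomes against 96.6, 105.7 and 93.1 CPM in whole-cell RNA, a log2 ratio of -1.97 (SE 0.051). The ER libraries gave 29.7, 28.5 and 29.8 CPM against 102.4, 103.6 and 109.6 CPM, a log2 ratio of -1.85 (SE 0.051). Herc1 and Herc2 share HECT and RCC1-like domains but differed in level and in shortfall. Herc1 stood at 26.3 ± 1.1 CPM on cytosol-labelled ribosomes and 76.9 ± 2.6 CPM in whole-cell RNA (SD, n = 3), a log2 ratio of -1.55 (SE 0.049). Herc2 stood at 17.7 ± 1.1 and 63.7 ± 1.9 CPM in the same groups, a log2 ratio of -1.85 (SE 0.057). With ER targeting the log2 ratio was -1.31 (SE 0.049) for Herc1 and -1.61 (SE 0.056) for Herc2, so Herc1 was the milder of the pair both times. Gm26749 lies opposite Birc6, and Fbxl22 and Gm28379 lie opposite Herc1.

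Both members that work mainly in the nucleus had the same direction, towards opposite ends of the range. Mdn1, the AAA ATPase that strips assembly factors from maturing large ribosomal subunits, was at 21.1, 19.4 and 21.6 CPM on cytosol-labelled ribosomes and at 97.4, 109.3 and 101.2 CPM in whole-cell RNA. That log2 ratio of -2.31 (SE 0.056) put its ribosome-bound CPM at 20.2% of its whole-cell CPM. As CPM are relative to the other mRNAs of a library, this is not the share of Mdn1 mRNA on ribosomes. With ER targeting Mdn1 had the lowest ratio of the 10 genes, at 24.6, 24.3 and 26.4 CPM against 98.7, 105.3 and 111.8 CPM (log2 ratio -2.07, SE 0.055). Prkdc, the catalytic subunit of the DNA-dependent protein kinase, was the least abundant. Its 312 to 345 counts per cytosol ribosome-bound library gave 13.2, 12.4 and 11.2 CPM, against 30.9, 32.5 and 32.1 CPM in whole-cell RNA. Prkdc thus had a log2 ratio of -1.38 (SE 0.065) with cytosol targeting and of -1.13 (SE 0.065) with ER targeting.

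Over the 10 genes the ER-targeted shortfall was smaller than the cytosol-targeted one for each gene, with a median log2 ratio of -1.52 beside 0.01 over all tested genes. No gene's ER ribosome-bound libraries overlapped its ER whole-cell libraries, and 32.0% of tested genes were lower without overlap in that comparison. All 10 were past edgeR's threshold in this direction, as 30.6% of tested genes were, and 9 were lower by more than 2-fold, as 1.98% were. When scaling factors were taken from 96 genes of cytosolic proteins instead of all genes, the ER-targeted median moved to -1.28 and that of all tested genes to 0.255. The direction of each of the 10 genes held under every alternative run for the comparisons of ribosome-bound with whole-cell RNA.

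**Figure D2:**
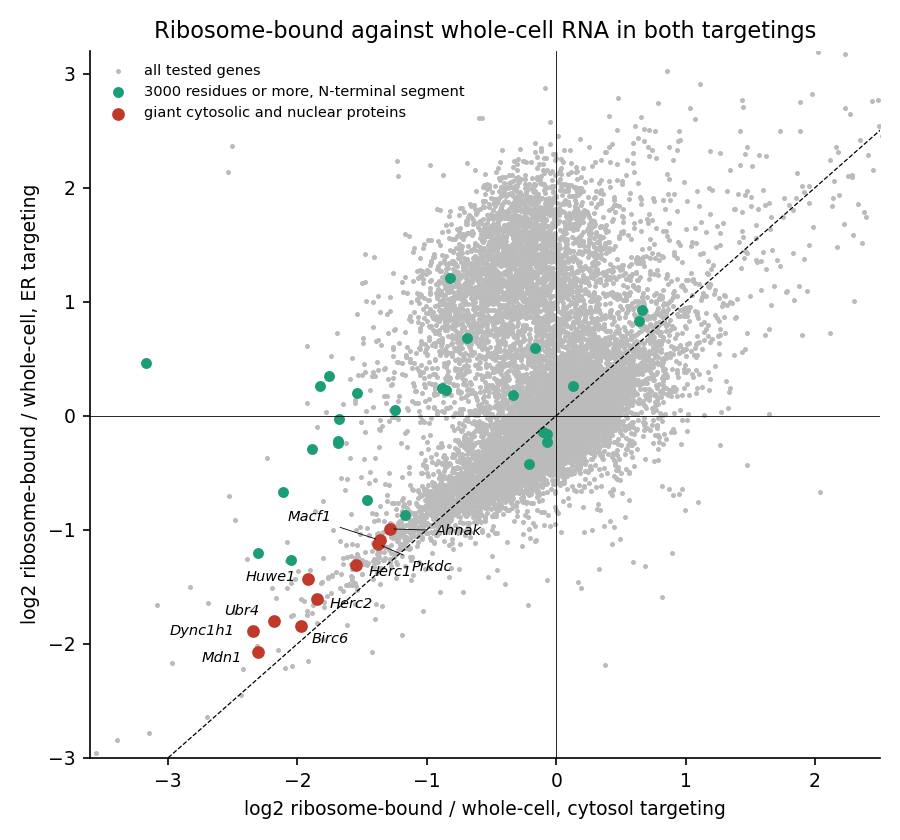
Each point is a tested gene, placed by its log2 ratio of ribosome-bound to whole-cell RNA with cytosol targeting (horizontal) and with ER targeting (vertical), and the dashed line marks equal ratios. Red points are the 10 giant proteins, between -2.34 and -1.29 horizontally and -2.07 and -0.99 vertically and above the dashed line, and green points are 27 genes of 3000 residues or more with an N-terminal segment. Of the tested genes, 125 lie outside the drawn range.

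Among the 10 genes protein length did not order the shortfall. Macf1, the longest, and Prkdc, the shortest, had nearly the same log2 ratio with cytosol targeting (-1.37 and -1.38), and the Spearman coefficient between length and this ratio was 0.22 over the 10 genes. Across 9801 tested genes without a hydrophobic segment the coefficient was -0.41 with cytosol targeting and -0.40 with ER targeting, given as a description because genes are not independent replicates. It was as large with transcript length, at -0.42 and -0.40.

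Genes without a hydrophobic segment were sorted by protein length to place the 10 genes among them, leaving the 10 out. By the same rule Mdn1, Birc6, Herc2 and Ubr4, with an internal window at 1.8 or more, would not enter these bins. With cytosol targeting the median log2 ratio was 0.13 over 2023 genes under 250 residues, 0.10 over 3315 genes of 250 to under 500 residues and -0.05 over 3137 genes of 500 to under 1000 residues. It was -0.37 over 1114 genes of 1000 to under 2000 residues, -0.78 over 159 genes of 2000 to under 3000 residues and -0.93 over 53 genes of 3000 or more, so medians were lower in each longer bin. With ER targeting the medians ran from 0.04 in the shortest bin to -0.70 in the longest. The 10 giant proteins, with medians of -1.88 and -1.52, lay below the median of the longest bin each time. In the longest bin 40 of 53 genes were called lower with cytosol targeting (75.5%) and 25 were lower by more than 2-fold. That bin still holds 2 proteins known to be secreted or at the cell surface, Vcan and Cubn, which the segment rule missed, and 20 of its genes had a mean under 10 CPM. Over its other 33 genes, a restriction chosen after seeing the data, the medians were -1.17 and -0.98. The segment rule missed secreted proteins in shorter bins as well, such as Fbn2 (2907 residues) and Lamb1 (1834 residues). Their log2 ratios of ER to cytosol ribosome-bound RNA were 1.95 and 1.66.

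The closest comparison set by length is the 31 other genes of 4000 residues or more without an N-terminal segment. Unlike the bins it keeps genes with an internal segment, as 4 of the 10 have, so it can hold membrane proteins. Its highest log2 ratio of ER to cytosol ribosome-bound RNA was 1.45, beside 0.55 among the 10. Their log2 ratios with cytosol targeting ranged from -2.04 to 2.86 with a median of -0.69, and 21 were called lower and 1 higher. With ER targeting their median was -0.48. For the 13 of them with a mean of at least 10 CPM, a restriction chosen after seeing the data, the range was -1.95 to -0.21 and the median -1.16 with cytosol targeting, with all 13 called lower, and the median was -0.84 with ER targeting. The 10 giant proteins ranged from -2.34 to -1.29, which overlaps the range of either set. As the 10 were chosen with these ratios known, the gap in medians is no evidence that they differ from other genes of their length.

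Single long genes show how wide the range was. The microtubule-binding protein Map1a (3014 residues) had the lowest ratio of the longest bin with cytosol targeting, -2.32 (SE 0.11), close to that of Dync1h1. Vps13c, a lipid transfer protein of 3748 residues, followed with -2.16 (SE 0.076). Titin (Ttn), at 0.8 ± 0.2 CPM on cytosol-labelled ribosomes, had -2.04 (SE 0.210). At the other end, Dnah7c had 2.86 (SE 0.630) at 0.4 ± 0.1 CPM, and its counts are uncertain because Dnah7a is a near copy. Transcript length was also looked at with short coding sequences: 137 genes of under 500 residues on transcripts of 6000 bases or more had a median of -0.16 with cytosol targeting, and 4135 such genes on transcripts under 3000 bases had 0.14. This split was also chosen after seeing the data.

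**Figure D3:**
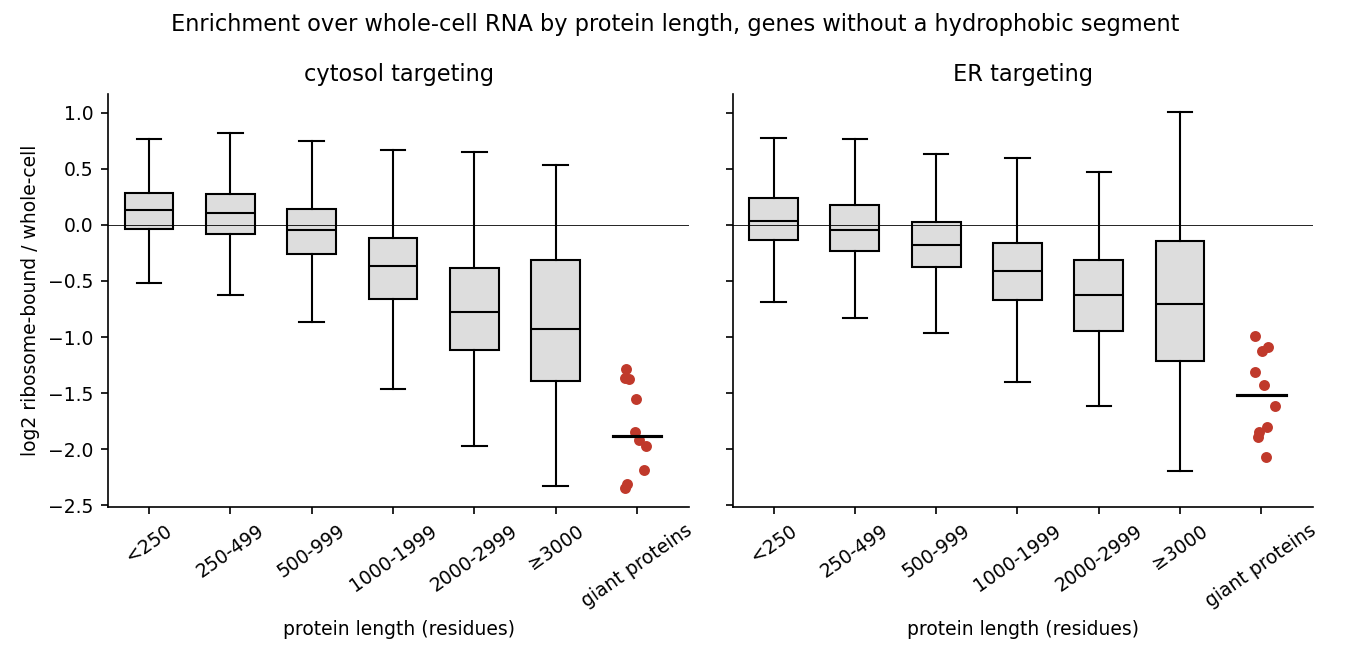
Log2 ratio of ribosome-bound to whole-cell RNA by protein length for genes without a hydrophobic segment, with cytosol targeting (left) and ER targeting (right). Boxes span the middle quartiles with the median as a line, whiskers reach the last gene within 1.5 box lengths, points beyond them are not drawn, and red points are the 10 giant proteins with their median, 4 of which have an internal hydrophobic segment. Medians fall from 0.13 and 0.04 in the shortest bin to -0.93 and -0.70 in the longest, and the red medians are -1.88 and -1.52.

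ER-labelled and cytosol-labelled ribosomes were then compared directly. All 10 mRNAs were more abundant on ER-labelled ribosomes, by 1.16-fold (Birc6) to 1.46-fold (Huwe1), with a median log2 ratio of 0.30 beside 0.00 over all tested genes. In 10 of 10 genes the 3 ER libraries lay above the 3 cytosol libraries without overlap, where 31.0% of tested genes did, and all 10 were past edgeR's threshold in this direction, where 29.1% were. This comparison uses the same ribosome-bound libraries as the ratios above, so it is another view of those values and adds no independent support.

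Huwe1 showed the largest difference, 159.4 to 165.1 CPM on ER-labelled ribosomes against 105.8 to 117.2 CPM on cytosol-labelled ones, a log2 ratio of 0.55 (SE 0.041). Dync1h1 followed with 99.6 to 105.3 CPM against 64.7 to 75.8 CPM and a log2 ratio of 0.52 (SE 0.047). Ubr4 was at 0.42 (SE 0.057), Macf1 at 0.33 (SE 0.053) and Herc1 at 0.31 (SE 0.054) on the log2 scale. The 3 genes with the highest level per kilobase thus also had the 3 highest ratios, and over the 10 genes the Spearman coefficient between whole-cell CPM and this ratio was 0.79. For the other 5 genes the ranges lay closer together. Ahnak was at 21.3 to 27.4 CPM against 19.6 to 20.4 CPM (log2 ratio 0.28, SE 0.067), and Herc2 at 20.3 to 23.3 CPM against 16.6 to 18.8 CPM (0.27, SE 0.065). Mdn1 was at 24.3 to 26.4 CPM against 19.4 to 21.6 CPM (0.27, SE 0.065) and Birc6 at 28.5 to 29.8 CPM against 23.9 to 26.1 CPM (0.22, SE 0.058). Prkdc was at 13.9 to 14.9 CPM on ER-labelled ribosomes against 11.2 to 13.2 CPM on cytosol-labelled ones (0.23, SE 0.073).

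The size of this difference depended on the scaling. With factors from the 96 genes of cytosolic proteins the median over the 10 genes was 0.54, while the median of all tested genes moved from 0.00 to 0.25. It also varied with the libraries used: with a library left out in turn the median ran from 0.21 to 0.32. The fewest genes past the threshold, 6 of the 10, were seen without ER ribosome-bound replicate 1, with a median of 0.22. Those that dropped out there were Ahnak, Herc2, Birc6 and Prkdc, and some genes also dropped out without other libraries. No alternative turned the sign for any of the 10 genes in this comparison.

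Other long proteins are set beside the 10 genes for this comparison. The 53 other genes of 3000 residues or more without a segment had a median of 0.26, with 32 called higher (60.4%) and 1 called lower. By contrast, 27 genes of that length with an N-terminal segment had a median of 1.10, and 2097 genes under 1000 residues with such a segment had 1.54. Genes of 250 to under 500 residues without a segment had a median of -0.14, which turned to 0.10 with the cytosolic scaling. Dst, the spectraplakin relative of Macf1, counted among the 27 because its longest annotated protein starts with a segment, yet its log2 ratio of 0.39 (SE 0.053) was close to that of Macf1.

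**Figure D4:**
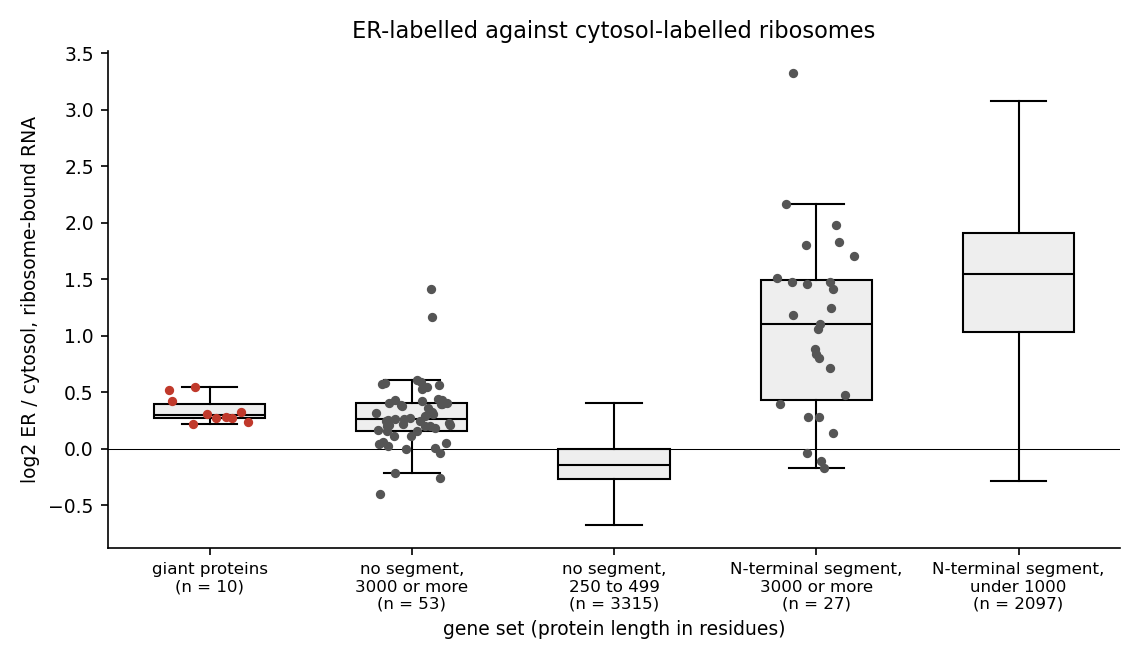
Log2 ratio of ER-labelled to cytosol-labelled ribosome-bound RNA for the 10 giant proteins (red) and 4 sets of other genes, with boxes and whiskers as in the plot by protein length and single genes drawn for sets under 100. The giant proteins lie between 0.22 and 0.55, near the 53 long proteins without a segment (median 0.26) and below the 27 long proteins with an N-terminal segment (median 1.10).

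Long secretory proteins give the contrast for both purifications. Of 32 listed secretory and membrane proteins of great length 29 were tested, with a median of 2907 residues. With cytosol targeting 28 of them were called lower in ribosome-bound RNA, where 33.0% of tested genes were. Their median log2 ratio was -1.3 beside -1.88 for the giant cytosolic and nuclear proteins. On ER-labelled ribosomes 14 of the 29 were called higher than whole-cell RNA (32.5% of tested genes were) and 6 lower (30.6% were), with a median of 0.22, while the 10 giant proteins had -1.52. The 27 genes of 3000 residues or more with an N-terminal segment are closer to the 10 in length. In that comparison 6 of the 27 were called higher and 6 lower, with a median of 0.05. Lrp2, an endocytic receptor, was the lowest of the list under both targetings, with log2 ratios of -2.31 and -1.21. Lrp1 had -1.46 (SE 0.055) and -0.74 (SE 0.053). This list and the partner lists below were chosen with earlier results of these data known, so their counts and ratios are a description.

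Whole-cell RNA of both targetings was compared as well. This ratio played no part in the choice of genes and was tested. None of the 10 genes passed the threshold, and their log2 ratios of ER over cytosol whole-cell RNA ranged from -0.02 (Prkdc) to 0.10 (Birc6), with a median of 0.05 beside 0.01 over all tested genes. Every one of the 10 had an adjusted p of 0.998 in edgeR's quasi-likelihood test, and the libraries of both groups overlapped for each gene, where 5.5% of tested genes were higher and 3.85% lower without overlap. Birc6 had the lowest unadjusted p, 0.0389, with 102.4 to 109.6 CPM in ER whole-cell RNA and 93.1 to 105.7 CPM in cytosol whole-cell RNA. That made 1 of 10 genes with an unadjusted p under 0.05, where 634 of 16221 tested genes (3.91%) had one. Over all tested genes edgeR called 0, which is 0.0%, and DESeq2 called 0.

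Partners of the giant proteins, most of them much shorter, were counted from lists. Of 25 subunits and adaptors of dynein and dynactin (median 410 residues), 10 were lower and 9 higher in ribosome-bound RNA with cytosol targeting, at a median log2 ratio of -0.01. Over all tested genes 33.0% were lower and 20.8% higher. Dynll1, a light chain of 89 residues that belongs to the same motor as Dync1h1, was higher with 0.39 (SE 0.035). The intermediate chain Dync1i2 was lower with -0.31 (SE 0.04). The adaptor Hook3 was the lowest of the list at -0.58 and Bicdl1 the highest at 0.50. With ER targeting 11 of the 25 were lower and 3 higher, where 30.6% of tested genes were lower and 32.5% higher. Of genes of 250 to under 500 residues without a segment 34.8% were lower and 20.5% higher there.

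Ubiquitin ligases related to Huwe1, Herc1, Herc2 and Ubr4 were mostly lower. Of 28 tested, 26 were lower and 2 higher with cytosol targeting, where 33.0% of tested genes were lower and 20.8% higher. Their median log2 ratio was -0.49 and their median length 1053 residues. Of the genes of 1000 to under 2000 residues without a segment, 69.4% were called lower there. With ER targeting 25 of the 28 were lower, beside 30.6% of tested genes and 72.9% of the genes of 1000 to under 2000 residues without a segment. Rnf213 (5152 residues, -1.95) and Mycbp2 (4746 residues, -1.88) reached ratios like those of the members, while Nedd4l (1004 residues) was higher at 0.42. In the direct comparison of ribosome pools 10 of the 28 were higher on ER-labelled ribosomes and 7 lower, near the shares of all tested genes, 29.1% higher and 24.6% lower. Arel1 led that list with 0.76.

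Cytoskeletal linkers around Macf1 and Ahnak were mixed, with 12 of 25 lower and 4 higher with cytosol targeting and a median log2 ratio of -0.15. Of all tested genes 33.0% were lower and 20.8% higher there. Nonmuscle myosin Myh10 was the lowest at -1.21 and the microtubule tip protein Mapre3 the highest at 0.63. Plectin (Plec), with 4691 residues as long as many of the giant proteins, had only -0.21 (SE 0.055) with cytosol targeting, and with ER targeting its -0.04 did not pass the threshold. S100a10 and Anxa2, known binding partners of Ahnak, were higher with cytosol targeting at 0.44 (SE 0.048) and 0.19 (SE 0.05). With ER targeting S100a10 was at 0.11 (SE 0.049) and Anxa2 was lower at -0.18 (SE 0.05).

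Of 17 factors of large subunit maturation around Mdn1, 9 were lower and 3 higher with cytosol targeting, beside 33.0% and 20.8% of tested genes. Their median log2 ratio was -0.20. The range was narrow beside the -2.31 of Mdn1, from -0.66 for the GTPase Gtpbp4 to 0.25 for Eif6. With ER targeting 15 of the 17 were lower, beside 30.6% of tested genes. The median length of this list was 588 residues, and of genes of 500 to under 1000 residues without a segment 51.7% were lower there. In the list around Prkdc, 8 of 17 genes were lower and 4 higher with cytosol targeting, beside 33.0% and 20.8% of tested genes. The Ku subunits Xrcc5 and Xrcc6, which load Prkdc onto DNA ends, stood at -0.26 and 0.10, whereas long kinases of the same family were lower, with -1.54 for Atm (3066 residues) and -1.46 for Smg1 (3658 residues). Around Birc6, 7 of 14 apoptosis regulators were higher and 3 lower with cytosol targeting, where 20.8% of tested genes were higher and 33.0% lower. The lowest was Uba6, the activating enzyme that hands ubiquitin to Birc6, at -0.75, and the highest was Cdca8 at 0.49.

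**Figure D5:**
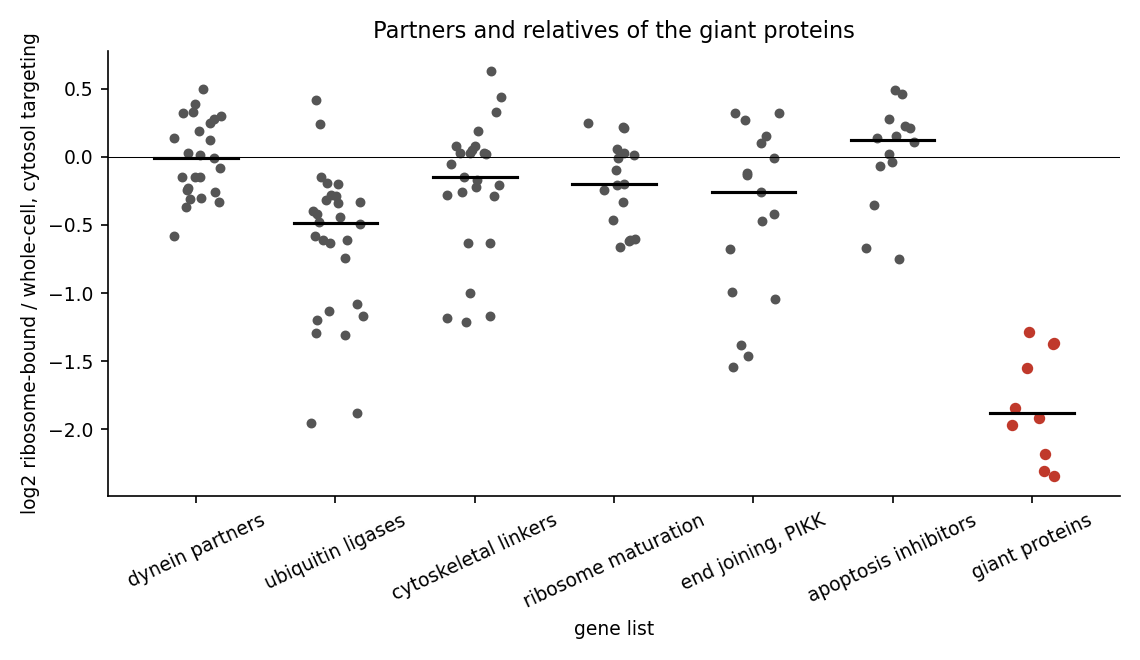
Log2 ratio of ribosome-bound to whole-cell RNA with cytosol targeting for the genes of 6 lists of partners and relatives and for the 10 giant proteins (red), with a bar at each median. List medians lie between -0.49 (ubiquitin ligases) and 0.13 (apoptosis inhibitors), and the giant proteins have -1.88.

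Genes outside the group were also ranked by how closely their log2 CPM followed the mean profile of the 10 genes over the 12 libraries. The 5 closest were Map1b (Pearson r = 0.9992), Ahctf1 (0.9991), Mga (0.9987), Ncaph (0.9987) and Arid2 (0.9987). The 12 points fall into 4 groups, so such values mainly say that the group means have the same pattern. Map1b fell from 124.9 CPM in cytosol whole-cell RNA to 36.7 CPM on cytosol-labelled ribosomes and stood at 47.3 CPM on ER-labelled ones. Of these 5 genes, 4 encode proteins of 1828 to 3042 residues, all shorter than the 10, and Ncaph encodes a protein of 731 residues.

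The libraries held 21.1 to 26.9 M counts in genes each, and every library of the 10 genes rests on at least 312 counts. All 10 embryonic stem cell markers were tested, at a summed 8896 to 13951 CPM per library, and 14 markers of fibroblast, endoderm, mesoderm and neural cells summed to 37.2 to 100.3 CPM. The latter sum was 98.7 to 100.3 CPM in ER ribosome-bound RNA, 48.1 to 51.0 CPM in cytosol ribosome-bound RNA and 37.2 to 41.7 CPM in whole-cell RNA. Thy1, at 15.2 to 62.1 CPM, was its largest part, and Postn, Foxa2, Pax6 and T stayed at or under 0.5 CPM. Col1a1 reached 11.29 CPM in its highest library, Sox1 9.57, Gata4 9.52, Gata6 5.6 and Neurod1 5.48 CPM. Col1a2, Sox17, Mixl1 and Mesp1 reached 2.95, 1.68, 1.07 and 0.68 CPM. In whole-cell RNA alone the sum was 37.7 to 41.7 CPM with cytosol targeting and 37.2 to 41.3 CPM with ER targeting. Among these markers that passed the filter, Thy1 had the highest log2 ratio of ER to cytosol ribosome-bound RNA, 1.86, and Mixl1 the lowest, -0.26. Whether such other cells were present, or had a part in the levels of the giant proteins, was not tested.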

How the data were processed

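Poly(A) RNA of 12 libraries was measured, 3 per group. Each deposited file holds raw counts of reads per Ensembl gene for 1 library. The submitters' processing notes name STAR 2.7.9a, HTSeq 0.11.2, DESeq2 and the build GRCm39. For annotation release, strand setting and multimapping: not given in the sources used here. Totals for reads outside genes (8.8% to 12.5% per library) entered neither library sizes nor tests.

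Names, lengths and coding sequences came from GENCODE M21, which matched 52083 of 55416 identifiers. Genes passing filterByExpr (16221) were scaled by TMM and fitted in 1 model of 4 groups with edgeR 4.0.16 in R 4.3.3. edgeR's quasi-likelihood test was used, 2-sided, with Benjamini-Hochberg adjustment at 0.05. The SE was taken as |log2 ratio| divided by √F. DESeq2 1.42.0 served as an alternative, with other scalings, filters, segment thresholds, a replicate block and each library left out in turn. The procedure was tested on simulated data.

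Replicates correlated at 0.9937 to 0.9947 across genes (log2 CPM) and differed by more than counting noise in each pair (chi-square per gene 2.11 to 9.1). The biological coefficient of variation was 3.6%. Errors do not cover PCR amplification.

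The members and the 10 gene lists (297 genes) were chosen with earlier results of these data known. Besides the 10 genes and direct partners from the lists, named genes were the highest and lowest of each partner or secretory list per ribosome comparison, the 5 nearest in profile, and the 3 highest and 3 lowest long genes without a segment. Examples of secreted or surface proteins that the segment rule missed were named too.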

Additional observations from a re-analysis of the deposited data

Results flagged for a closer look

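Among the genes named by rule, 2 moved in opposite directions with the targeting in every library. Arel1, a HECT-type ubiquitin ligase of 823 residues, was at 28.2 to 29.7 CPM on cytosol-labelled ribosomes, below the 35.4 to 37.5 CPM of cytosol whole-cell RNA (log2 ratio -0.33). ER targeting gave 46.4 to 50.6 CPM on ribosomes and 35.5 to 36.4 CPM in whole-cell RNA (log2 ratio 0.43), the opposite order. Lamc1, a laminin chain of 1607 residues, was at 150.3 to 163.6 CPM against 304.5 to 310.2 CPM with cytosol targeting (-0.98) and at 671.7 to 690.1 CPM against 312.4 to 324.9 CPM with ER targeting (1.09). The difference between the targetings was not tested for either gene. None of the 10 giant proteins had such a pattern.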

How the results depend on the processing

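Each comparison was recomputed under the alternatives, including 12 with a library left out. All 10 giant proteins were called lower on ribosomes than in whole-cell RNA in each of these. The median over the 10 for cytosol targeting was -1.82 both without mitochondrially encoded genes and in a fit of the 2 groups alone, and ran from -1.90 to -1.79 with a library left out. For ER targeting it was -1.28 with cytosolic scaling, which called 8338 genes higher and 2303 lower. For ER against cytosol ribosomes the median was 0.54 with cytosolic scaling (8435 genes higher, 530 lower), 0.24 without mitochondrially encoded genes, 0.23 without a filter, and 0.21 to 0.32 with a library left out, when 6 to 10 of the genes were called. In that comparison Prkdc was at 0.17 and not called without a filter, and Prkdc and Herc2 were at 0.18 and 0.16 and not called without cytosol ribosome-bound replicate 2. Prkdc was also not called without replicate 3 of either ribosome-bound group (0.17 and 0.16). In the whole-cell comparison 7 genes were called lower without a filter, and 0 to 2 with a library left out. With a library left out, the ratio there ran from -0.02 to 0.08 in Mdn1 and from -0.04 to 0.02 in Ahnak. It changed sign in Mdn1 (-0.01 without cytosol whole-cell replicate 1, -0.02 without ER whole-cell replicate 3) and in Ahnak (0.00 without cytosol whole-cell replicate 2, 0.02 without ER whole-cell replicate 1). The bin of 3000 residues or more moved to -1.17 and -0.98 when restricted to a mean of 10 CPM, and to -0.46 (ER targeting) and 0.51 (ER against cytosol) with cytosolic scaling. That scaling turned the ER-targeted medians of 250 to under 500 and 500 to under 1000 residues to 0.19 and 0.06. It turned those of ER against cytosol to 0.15, 0.10, 0.12 and 0.25 in the bins under 250, 250 to under 500, 500 to under 1000 and 1000 to under 2000 residues. A segment threshold of 2.0 turned the last to 0.00. For the scaling, this follows from its construction, since it shifted all genes by 0.241 and 0.248. For the other changes the cause was not tested.

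Ribosome-bound and whole-cell RNA came from aliquots of a lysate, but the labels do not say that a replicate number marks the same one. The deviations of same-numbered samples correlated at 0.056 to 0.1 for ribosome-bound against whole-cell RNA with cytosol targeting, at -0.007, 0.259 and 0.263 with ER targeting, and at -0.21 to 0.091 between the targetings. As not every pair was over 0.1, the numbers were not taken as a pairing. With the replicate number as a block the medians over the 10 genes were -1.88, -1.52, 0.30 and 0.05 in the 4 comparisons, and no count of calls moved by over 1.5 times.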
